A study of Danio rerio with 16 samples.

Results

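The 7 genes described here are egln3, eno1a, pfkfb3, ldha, pgk1, vegfaa and si:dkey-85k7.7, taken by symbol from the 21301 genes of the count matrix. They were chosen by name, on earlier results of the same data, as an oxygen response and inducible glycolysis group that is higher after DMH1 and SU5402 than in wild type. Their values in those 2 contrasts are therefore given as a description, with no test. Of the 7 genes, 6 were higher in both contrasts, and vegfaa was not.

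Vertebrate cells sense oxygen through prolyl hydroxylases of the EGLN family, which mark the HIF alpha subunit for destruction by the VHL ubiquitin ligase while oxygen is present. When oxygen falls, HIF alpha persists, joins ARNT and switches on genes for glucose uptake, glycolysis, lactate formation and blood vessel growth. In chick and mouse embryos, the progenitors at the tail end are known for high glycolytic activity.

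The samples were tails cut from zebrafish embryos at the 10 to 12 somite stage, just behind the youngest somite, and profiled as single cells with droplet 3′ sequencing, in which unique molecular identifiers (UMIs) count captured transcripts. The 4 groups comprised wild type embryos, whose treatment label reads WT, and embryos treated with DMH1 to inhibit BMP signalling. The others were embryos treated with SU5402 to inhibit FGF signalling, and embryos in which notum-1 served to inhibit Wnt signalling. Each group had 4 libraries, each from a pool of 10 tails (12 tails for notum-1) dissociated with papain. The sources used here give no doses, exposure times, notum-1 delivery or vehicle control, and DMH1, SU5402 and notum-1 libraries are all compared with the same 4 WT libraries. The labels call the libraries replicates and name no further source, so p-values measure the spread between these pools.

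The matrix held 130661 cells. Library totals ran from 26415698 to 50512590 UMIs in WT, 46922073 to 76488460 after DMH1, 12398958 to 70365340 after SU5402 and 33086139 to 62492196 in notum-1. All 6 tail mesoderm progenitor markers (such as tbxta and tbx16) were detected in every group, with a summed level of 2305 to 2685 CPM (UMIs of a gene per 1e6 UMIs) in WT, 1977 to 2914 after DMH1, 2162 to 3217 for SU5402 and 914 to 1188 with notum-1. The 6 markers of head and heart, which lie outside the cut, summed to 25.1 CPM at most. Of all cells, 3.24% carried a barcode that also occurred in another library, and no 2 libraries shared more than 48 barcodes.

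Several features of the libraries moved with the groups in which the genes were high. The median mitochondrial share per cell was 3.56% to 4.88% in DMH1 libraries and 3.62% to 6.55% after SU5402, against 1.52% to 2.38% in WT and 1.16% to 1.45% in notum-1. The highest share in any cell of a library was 6.96% to 6.999% after DMH1 and 6.99% to 9.99% after SU5402 (highest in SU1). That maximum was 4.53% to 4.998% in WT and 2.98% to 2.998% in notum-1. The lowest gene number in any cell also differed, from 501 in notum-1 to 1501 in SU4. The deposited cells thus end at limits that differ by group, and the medians were taken within them. The part of these limits in the difference was not tested. The summed level of the 4 hsp70 copies, heat-shock chaperone genes, was 15.5 to 40.6 CPM after DMH1 and 17.8 to 34.3 CPM after SU5402, against 967 to 1738 CPM in WT and 417 to 1334 CPM in notum-1. A list of 25 handling stress genes, 24 of them in the matrix and the hsp70 copies among them, summed to 3541 to 4745 CPM after DMH1, 2558 to 3653 CPM after SU5402, 7206 to 8899 CPM in WT and 5396 to 14337 CPM in notum-1. The list also holds immediate early genes such as fosab, jun and egr1, and the part of the treatments themselves in its sum was not tested. The WT and notum-1 libraries also share the name endings MG1, MG2, DJ1 and DJ2, while DMH1 and SU5402 libraries carry numbers, so whatever these names stand for and the treatments cannot be told apart. The part of mitochondrial share and hsp70 levels in the results below was not tested, except that a common cell filter was applied.

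egln3 encodes a HIF prolyl hydroxylase that is itself induced by HIF in mammals. Summed over all cells, it was at 3.29, 4.39, 4.11 and 12.1 CPM in MG1, MG2, DJ1 and DJ2, the WT libraries. It was at 85.9, 71.9, 146.9 and 119.0 CPM in the DMH1 libraries DMH0, DMH2, DMH3 and DMH4, and at 153.5, 142.2, 129.6 and 89.2 CPM in SU1 to SU4. The lowest treated library thus stood well above the highest WT library, DJ2. The fitted difference from WT was 4.00 ± 0.36 on the log2 scale (SE) after DMH1, a 16.0-fold higher level, and 4.19 ± 0.36 after SU5402. Without DJ2 these values were 4.601 and 4.78. For comparison, 42.4% of all 16399 genes tested differed between DMH1 and WT and 42.6% between SU5402 and WT at an adjusted p under 0.05 (edgeR quasi-likelihood, Benjamini-Hochberg). These contrasts chose the genes, and nothing is read from the shares.

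si:dkey-85k7.7 is listed as a long noncoding RNA by RefSeq. Its WT level was 0.81, 1.74, 2.46 and 6.08 CPM in MG1, MG2, DJ1 and DJ2, so DJ2 was again the highest. DMH1 libraries held 78.8, 67.6, 107.4 and 112.3 CPM, and SU5402 libraries 117.0, 123.1, 128.9 and 97.5 CPM. The fitted difference was 4.89 ± 0.48 on the log2 scale after DMH1 and 5.15 ± 0.49 after SU5402, the highest of the 7 genes in both. Without DJ2 it was 5.63 and 5.90.

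The 4 enzyme genes of glycolysis were also higher. eno1a encodes an enolase, which makes phosphoenolpyruvate. It was at 1.00, 1.36, 1.56 and 1.52 CPM in WT, libraries in the order above. It reached 25.3, 21.3, 40.9 and 50.9 CPM after DMH1 and 59.0, 46.3, 33.0 and 45.6 CPM after SU5402. No treated library came near the WT range, and the fitted difference was 4.52 ± 0.29 (DMH1) and 4.83 ± 0.30 (SU5402) on the log2 scale.

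pfkfb3 encodes the enzyme that makes fructose 2,6-bisphosphate, the activator of phosphofructokinase. Its levels were 3.12, 2.76, 3.69 and 4.30 CPM in WT, 51.6, 34.2, 98.6 and 57.3 CPM after DMH1, and 112.8, 79.9, 77.9 and 42.5 CPM after SU5402. All treated libraries exceeded WT, and the fitted differences were 3.98 ± 0.33 and 4.24 ± 0.33 on the log2 scale. ldha encodes a lactate dehydrogenase subunit that favours the conversion of pyruvate to lactate. It was at 5.44, 5.30, 5.92 and 8.57 CPM in WT, 74.97, 68.5, 130.8 and 104.7 CPM after DMH1, and 125.8, 102.2, 121.0 and 103.5 CPM after SU5402. The groups did not overlap, and the fitted differences were 3.76 ± 0.24 and 3.94 ± 0.25 on the log2 scale.

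pgk1 encodes phosphoglycerate kinase, the earlier of the ATP-forming steps of glycolysis. It was at 3.48, 4.13, 4.11 and 4.55 CPM in WT, 21.7, 14.9, 28.3 and 33.8 CPM after DMH1, and 32.3, 33.3, 20.3 and 29.6 CPM after SU5402. Its differences, 2.45 ± 0.21 and 2.58 ± 0.21 on the log2 scale, were the lowest among the 6 genes that were higher. Among the DMH1 libraries, DMH2 was the lowest for each of these 6 genes. DMH2 also had the highest median mitochondrial share of its group, 4.88%. In SU5402 the library with the highest share, SU1 at 6.55%, was instead the highest for egln3, eno1a, pfkfb3 and ldha. It was not the highest for si:dkey-85k7.7 or pgk1, and no link between share and level was tested.

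vegfaa, which encodes the main ligand that drives blood vessel growth, went against the group over all cells. It was at 4.03, 5.41, 4.27 and 4.32 CPM in WT, 3.30, 2.41, 2.94 and 2.92 CPM after DMH1, and 6.21, 5.27, 3.28 and 2.33 CPM after SU5402. All 4 DMH1 libraries lay below WT, while SU5402 libraries fell on both sides of it. The fitted differences were -0.78 ± 0.25 and -0.37 ± 0.25 on the log2 scale.

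**Figure D1:**
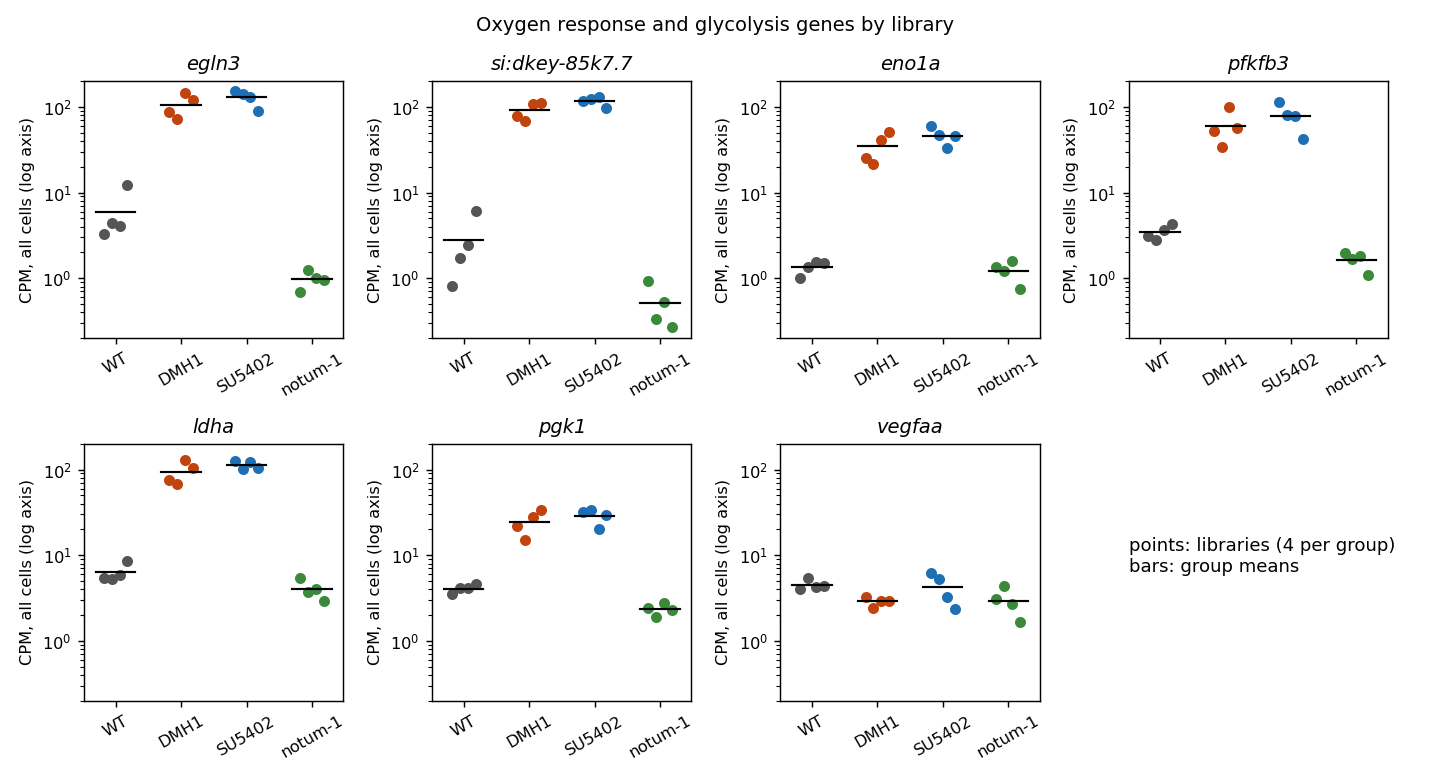
Level of each of the 7 genes in CPM over all cells (log axis), 1 point per library and 4 libraries per group, with bars at the group means. All genes but vegfaa lie higher after DMH1 and SU5402 than in WT. The mean CPM of those 6 genes is lowest in notum-1, where the median of all genes was also below WT by library totals (-0.37 on the log2 scale). For eno1a the TMM-scaled difference of notum-1 from WT was 0.26 on the log2 scale, the other direction.

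Limiting all libraries to cells with a mitochondrial share of at most 2.9% and at least 1500 genes left 5546 DMH1, 3014 SU5402, 10736 WT and 12718 notum-1 cells, with 42 cells from SU1. The differences of the 6 genes were as large or larger in these cells. On the log2 scale, egln3 was 4.90 (DMH1) and 5.27 (SU5402) above WT, eno1a 4.80 and 5.14, pfkfb3 4.73 and 4.69, si:dkey-85k7.7 5.82 and 5.75, ldha 4.22 and 4.16, and pgk1 2.77 and 3.00. vegfaa was further below WT in these cells, by -1.59 and -1.996 on the log2 scale. Most of its UMIs came from notochord cells, as given below, and the mix of cell classes left by the filter was not examined.

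The higher levels reached many cells. With every cell thinned to 2000 UMIs, a UMI of egln3 was found in 11.8% to 20.4% of cells per DMH1 library and 13.8% to 22.8% per SU5402 library, against 0.67% to 2.35% in WT and 0.13% to 0.24% in notum-1. Before thinning, these shares were 29.0% to 47.1%, 26.8% to 40.0%, 1.57% to 5.01% and 0.37% to 0.92%. Thinning left out 8 DMH1, 2057 SU5402, 338 WT and 737 notum-1 cells that were shallower. At full depth, 36.0% to 59.4% of cells per DMH1 library and 30.7% to 58.8% per SU5402 library held UMIs of 2 or more of the 7 genes. In WT libraries 0.41% to 1.52% of cells did, and in notum-1 libraries 0.24% to 0.47%. These shares of 2 or more genes were not thinned and depend on depth. Median UMIs per cell were 6870 to 8139 in DMH1 libraries, 2424 to 8820 in SU5402, 3381 to 5637 in WT and 4152 to 9972 in notum-1. No cell class is known to lack these genes, so the share that free RNA alone would give could not be read from a negative class.

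Free RNA could be gauged from epidermal genes, since droplets pick up RNA released by other cells. In the 15 non-epidermal classes used below, the summed epidermal markers stood at 38.7% to 65.5% of their all-cell CPM in WT, 20.5% to 37.5% after DMH1, 20.5% to 36.4% after SU5402 and 15.9% to 67.2% in notum-1. The top of each range was intermediate mesoderm. The next highest class in WT and notum-1 was lateral plate mesoderm (hand2), at 51.6% and 24.1%. Whether non-epidermal cells express these markers themselves was not tested, so the measure is approximate. A class whose share of a gene's all-cell level falls at or below the epidermal share of that class is at background by this measure.

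The authors' annotation gives 25 cell classes, of which 18 had at least 30 cells in every library and are given by library. The other 7 are too small for levels by library. Classes were called from the same cells, so levels by class are a description with no test. The names PZ and NMP are kept as the annotation writes them, and PSM stands for presomitic mesoderm.

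egln3 was the most evenly spread of the group after DMH1 and SU5402, together with si:dkey-85k7.7. Its mean level per class ran from 59.0 ± 25.2 CPM (SD, n = 4) in lateral plate mesoderm (lmo2) to 157.5 ± 48.6 CPM in anterior notochord after DMH1. In SU5402 it ran from 79.8 ± 27.0 to 196.0 ± 65.9 CPM between the same 2 classes, a span of 2.46 times. Over the 17 classes with at least 10 UMIs in WT, the group mean was 10.9 to 27.0 times the WT mean after DMH1 and 13.6 to 33.6 times after SU5402, highest in anterior notochord in both. In epidermis 4, where WT was highest, the lowest treated library was still 2.92 times the highest WT library in both contrasts.

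si:dkey-85k7.7 was highest in posterior and anterior neuronal cells. Posterior neuronal cells held 138.7 ± 28.6 CPM after DMH1 and 163.0 ± 14.4 CPM after SU5402, and anterior neuronal cells 129.0 ± 32.0 and 167.6 ± 55.3 CPM. Its lowest class was lateral plate mesoderm (lmo2), at 49.6 ± 14.3 and 69.3 ± 14.8 CPM. The ratio to WT was lowest in epidermis 1, at 8.56 after DMH1 and 10.97 after SU5402. There, WT libraries split into 0.71 and 1.09 CPM (MG1 and MG2) against 11.8 and 12.5 CPM (DJ1 and DJ2). In PZ 1 the ratio was 111.2 and 143.8, over 17 UMIs in all 4 WT libraries. WT was at background for si:dkey-85k7.7 in PZ 1, with 28.3% of the all-cell level against 38.8% for the epidermal genes.

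Among the 6 genes that were higher, eno1a varied most from class to class. Differentiated neuronal cells were its highest class in every group, with 24.7 ± 2.44 CPM in WT, 135.2 ± 65.8 CPM after DMH1, 150.7 ± 30.9 CPM after SU5402 and 8.68 ± 5.83 CPM in notum-1. The WT libraries held 28.2, 24.4, 22.4 and 24.1 CPM there, from 45 UMIs in all. Because WT was high in this class, its ratio was the lowest of the 10 classes with enough WT UMIs, 5.46 after DMH1 and 6.09 after SU5402. Posterior neuronal cells, at 10 UMIs in WT, gave the highest, 98.7 and 129.2. The WT level of eno1a there, 44.8% of the all-cell level, was at background by the epidermal measure (46.3%).

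In the tailbud mesoderm, the eno1a level after DMH1 and SU5402 was low beside the other classes, though above WT. Its ratio to WT was 10.8 and 23.5 in PZ 1 and 12.8 and 26.2 in PSM, above the ratios of differentiated neuronal cells. The WT levels rest on 13 UMIs in PZ 1 and 11 UMIs in PSM. PZ 1 libraries held 4.35, 2.73, 10.8 and 6.57 CPM after DMH1, and 21.8, 16.6, 6.36 and 8.21 CPM after SU5402, against 0.26 to 0.77 CPM in WT. In DMH1 the PSM level was 25.5% of the all-cell level, just above the 23.0% of the epidermal genes there. The PZ 1 level in DMH1 was 17.3% of the all-cell level, below the 20.5% of the epidermal genes there, and PZ 2 was also at background by this measure. In SU5402 none of the 15 classes was, and PZ 1 stood at 27.5%. The same class was lowest for pgk1, at 8.29 ± 3.26 CPM after DMH1 and 11.9 ± 3.25 CPM after SU5402, which is 35.0% and 40.8% of the all-cell level.

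ldha, pfkfb3 and pgk1 were highest in anterior notochord after both inhibitors. For ldha, anterior notochord libraries held 224, 215, 342 and 298 CPM after DMH1 and 352, 285, 292 and 283 CPM after SU5402, against 23.7, 15.6, 20.1 and 24.9 CPM in WT. The level in anterior notochord exceeded that in epidermis 1 in all 16 libraries. In WT, ldha was as high in differentiated neuronal cells, at 26.4 ± 10.0 CPM beside 21.1 ± 4.21 CPM in anterior notochord, within the spread of the libraries. Over the 18 classes, ldha was 6.11 to 27.4 times WT after DMH1 and 8.03 to 36.4 times after SU5402. The 27.4 was in PZ 2, where WT was at background for ldha (42.1% against 48.8%).

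For pfkfb3, anterior notochord stood at 111.3 ± 36.5 CPM after DMH1 and 146.9 ± 65.4 CPM after SU5402, and epidermis 1 was lowest, at 25.7 ± 16.6 and 35.6 ± 15.7 CPM. Its WT order was different, with lateral plate mesoderm (lmo2), the class of blood and vessel precursors by its marker, highest at 7.94 ± 2.74 CPM. There the ratio to WT was the lowest of 15 classes, 4.95 after DMH1 and 6.17 after SU5402. For pgk1, anterior notochord stood at 67.7 ± 19.0 and 76.9 ± 19.6 CPM, 20.2 and 23.0 times the WT mean, which rests on 14 UMIs. These were the highest ratios of 17 classes, whose medians were 5.53 after DMH1 and 5.66 after SU5402.

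pgk1 in lateral plate mesoderm (lmo2) was the weakest case. WT libraries held 8.66, 9.56, 8.62 and 12.9 CPM, DMH1 18.2, 11.1, 28.3 and 33.5 CPM, and SU5402 21.4, 25.1, 15.1 and 23.2 CPM. The ratio was 2.30 and 2.13, and after DMH1 the groups overlapped, since DMH2 lay below the highest WT library. In lateral plate mesoderm (hand2) the lowest SU5402 library, at 14.0 CPM, lay just under the highest WT library, at 14.2 CPM. In PZ 2 the lowest DMH1 library, at 4.46 CPM of pgk1, likewise lay under the highest WT library, at 4.54 CPM. The order of the 18 classes was similar between DMH1 and SU5402, with a Spearman correlation of class means of 0.98 for eno1a, 0.95 for si:dkey-85k7.7, 0.93 for pfkfb3, 0.91 for pgk1, 0.90 for ldha, 0.85 for vegfaa and 0.84 for egln3. These classes share libraries, depth and free RNA, so the values are a description.

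**Figure D2:**
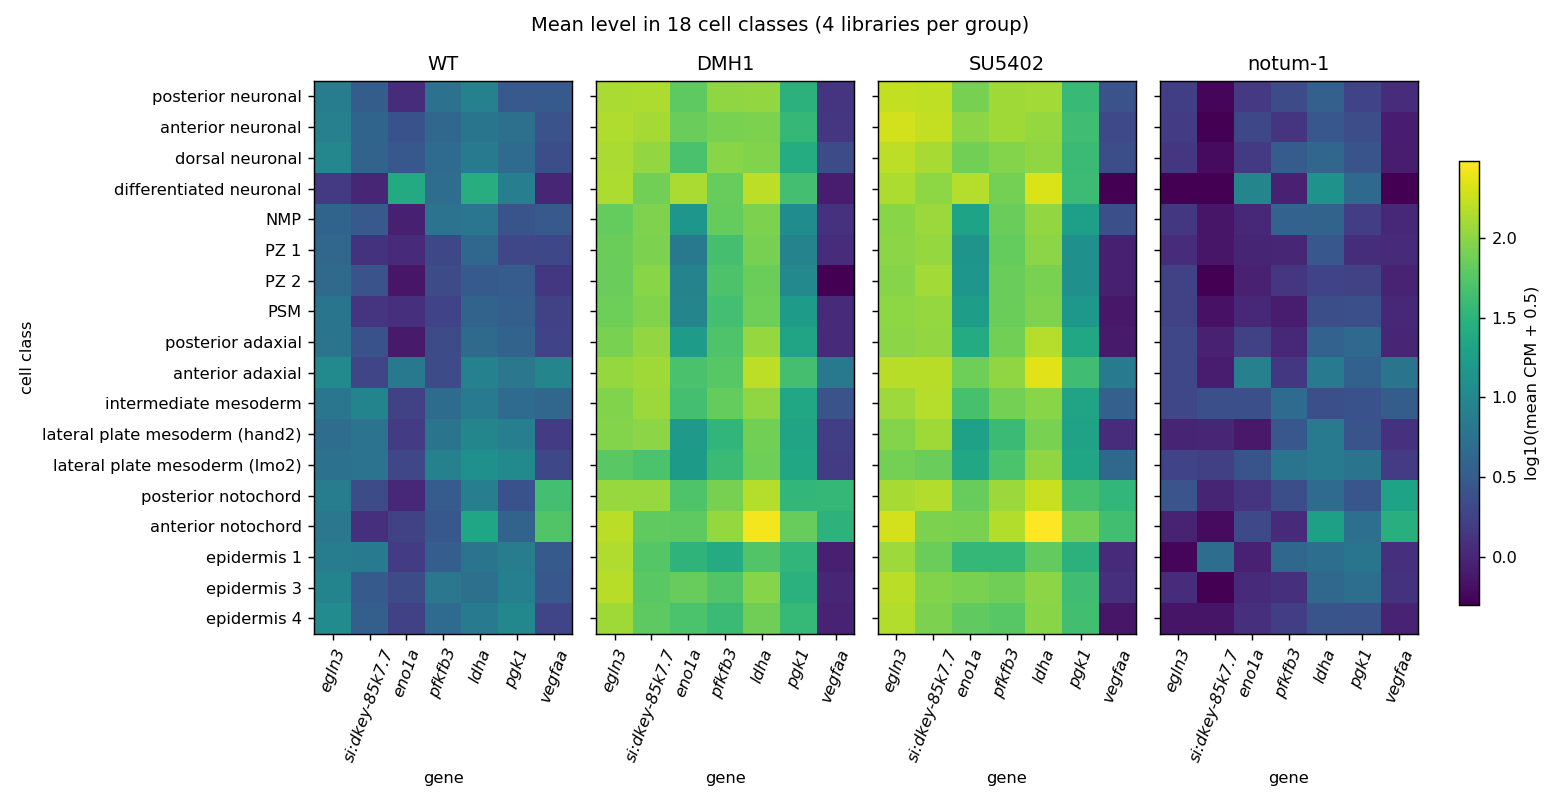
Mean CPM of each gene (columns) in 18 cell classes (rows) for each group, as the mean of 4 libraries, coloured by log10(mean CPM + 0.5). The 6 genes other than vegfaa are brighter after DMH1 and SU5402 in every row, after DMH1 and SU5402 eno1a and pgk1 are darkest in the PZ 1 row, and vegfaa is bright in the notochord rows of every group.

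vegfaa was a notochord gene in all groups. The 2 notochord classes held 54.9% of its UMIs in WT, 69.6% after DMH1, 61.2% after SU5402 and 73.0% in notum-1, while they were 4.66%, 5.75%, 6.73% and 8.89% of the cells. Anterior notochord libraries held 55.7, 70.01, 42.3 and 42.2 CPM in WT, 37.4, 25.4, 31.0 and 30.9 CPM after DMH1, 54.97, 55.7, 41.7 and 22.5 CPM after SU5402, and 24.7, 28.5, 25.9 and 31.8 CPM in notum-1. DMH1 and notum-1 libraries all lay below WT there, and SU5402 libraries overlapped WT.

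In posterior notochord, vegfaa was at 44.4 ± 5.70 CPM in WT, 34.9 ± 5.08 CPM after DMH1, 34.5 ± 20.7 CPM after SU5402 and 19.9 ± 4.24 CPM in notum-1. The SU5402 libraries split into 56.6 and 47.4 CPM (SU1 and SU2) against 19.9 and 14.2 CPM (SU3 and SU4). Anterior adaxial cells, the slow muscle precursors beside the notochord, came next, at 4.63 to 11.9 CPM in WT and 4.51 to 8.71 CPM after DMH1. In lateral plate mesoderm (lmo2), vegfaa was 2.48 times WT after SU5402, the highest of 14 classes (median 0.76), and 0.69 times after DMH1. SU5402 libraries there held 3.09 to 4.94 CPM, all above WT at 1.06 to 2.30 CPM, which came from 10 UMIs. WT was at background there, at 34.3% of the all-cell level against 40.3% for the epidermal genes. Of the 15 non-epidermal classes, 8 were at background for vegfaa in WT, 3 after DMH1, 6 after SU5402 and 5 in notum-1. Neither notochord class was among the 5 classes tested between notum-1 and WT, so the notum-1 values there are a description.

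**Figure D3:**
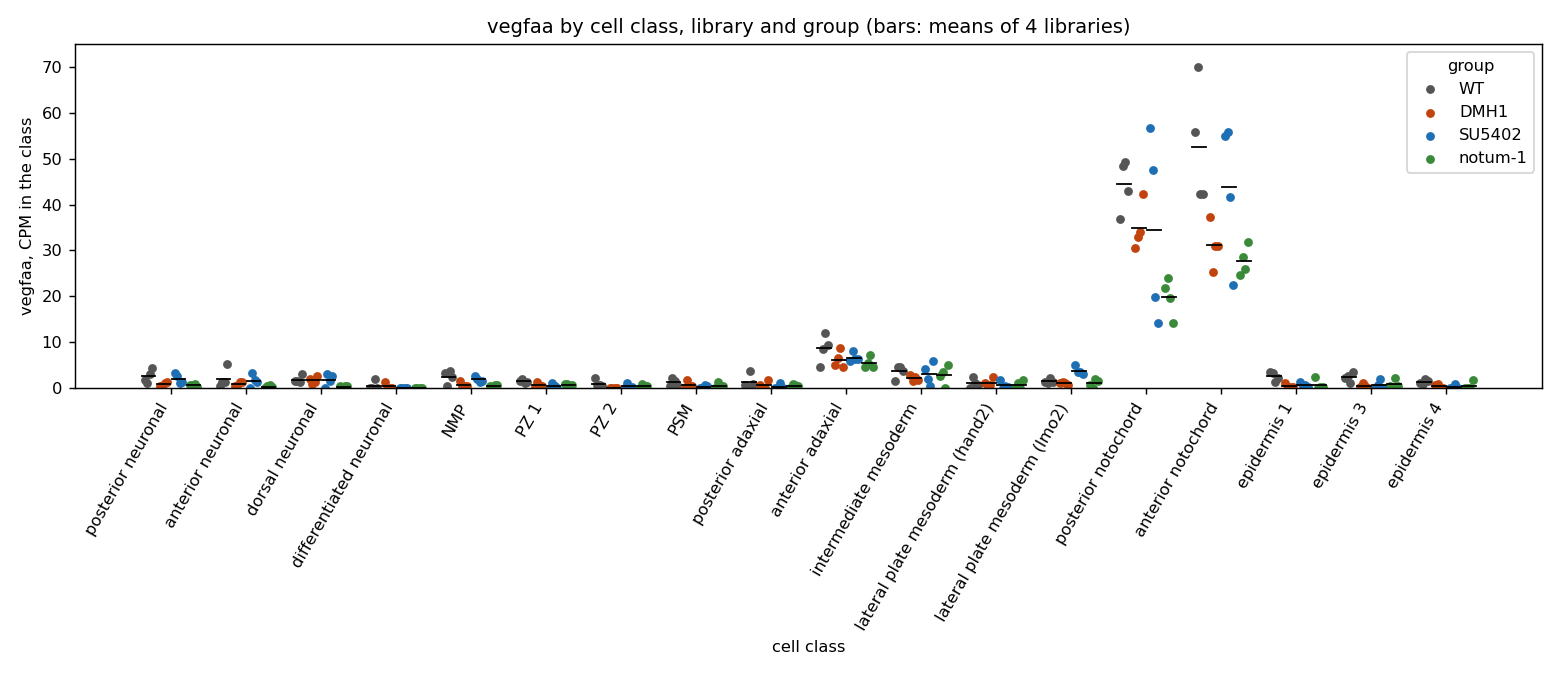
vegfaa in CPM (linear axis) by cell class, 1 point per library coloured by group, with bars at the means of 4 libraries. The notochord classes stand apart in every group, with WT between 36.9 and 70.01 CPM and notum-1 between 14.2 and 31.8 CPM.

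The contrast of notum-1 with WT was not used to choose the genes, although it shares the WT libraries with the contrasts that did. egln3 fell to 0.69, 1.24, 1.01 and 0.94 CPM in the notum-1 libraries WNT_MG1, WNT_MG2, WNT_DJ1 and WNT_DJ2, all below the lowest WT library at 3.29 CPM. The log2 fold change was -2.24 ± 0.37 (adjusted p = 0.000373, edgeR quasi-likelihood, n = 4 libraries a group), and -1.64 without DJ2, still past the threshold (adjusted p = 0.000357, edgeR). si:dkey-85k7.7 fell to 0.94, 0.33, 0.53 and 0.27 CPM. The highest of these overlapped the lowest WT library, at 0.81 CPM. Its log2 fold change was -2.0 ± 0.50 (adjusted p = 0.00659, edgeR), and -1.25 without DJ2 (adjusted p = 0.0288, edgeR). Thus 2 of the 7 genes were called, both lower, against 38.0% of all genes called, 20.9% higher and 17.1% lower, so the count itself is near the background.

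The other 5 genes did not pass the threshold in notum-1. The glycolysis genes were at 0.75 to 1.60 CPM for eno1a, 1.08 to 1.96 CPM for pfkfb3, 2.93 to 5.43 CPM for ldha and 1.90 to 2.78 CPM for pgk1. vegfaa was at 1.66 to 4.32 CPM. The log2 fold changes were 0.26 (95% interval -0.34 to 0.86) for eno1a, -0.68 (-1.35 to -0.01) for pfkfb3, -0.24 (-0.77 to 0.30) for vegfaa, -0.23 (-0.72 to 0.25) for ldha and -0.38 (-0.82 to 0.06) for pgk1. For vegfaa this all-cell value also carries the mix of classes, since the 2 notochord classes were 4.66% of WT and 8.89% of notum-1 cells. Within the 14 classes with at least 10 UMIs in WT, its mean CPM in notum-1 was 0.16 to 0.78 times WT (median 0.36). These class ratios are plain CPM and a description, and the part of the class mix was not tested.

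These fits depend on scaling. Over all genes, TMM scaling put the median log2 fold change for notum-1 at 0.03, and with library totals alone it was -0.37, so plain CPM ratios lie lower than the fitted ones. For DMH1 and SU5402 the shift was from 0.06 to 0.20 and from 0.11 to 0.34. With library totals, 1418 genes were higher and 6113 lower in notum-1, against 3430 and 2809 with TMM. In DMH1 they were 4655 and 2323, against 3626 and 3327, and after SU5402 5269 and 2006, against 3773 and 3214. With library totals alone, pfkfb3 (-1.09, adjusted p = 0.0131), ldha (-0.65, adjusted p = 0.0245) and pgk1 (-0.79, adjusted p = 0.00863) were also called lower by edgeR, and eno1a turned to -0.15 (adjusted p = 0.711). pfkfb3 was also called with only the 8 WT and notum-1 libraries fitted (-0.70, adjusted p = 0.0309, edgeR).

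Within cell classes, egln3 was lower in notum-1 in 4 of the 5 classes tested. In posterior neuronal cells it was at 1.07, 0.77, 1.85 and 0.87 CPM, against 4.11, 2.74, 3.74 and 17.02 CPM among WT libraries, which gave -2.19 on the log2 scale, with SE 0.58 (adjusted p = 0.0101, edgeR) that lost its call without DJ2 (-1.15, adjusted p = 0.0506). In PZ 1 it was at 0.33 to 0.81 CPM against 2.03 to 6.11 CPM (-2.07 ± 0.55, adjusted p = 0.00772, edgeR), and no single library left out ended that call. In PSM it was -1.80 ± 0.55 (adjusted p = 0.0174, edgeR), a call lost without DJ2, WNT_MG1 or WNT_DJ2 (adjusted p = 0.0688, 0.0511 and 0.0750). In NMP it was -1.53 ± 0.74 (adjusted p = 0.122, edgeR).

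Epidermis 1 held 1 UMI of egln3 in the 4 notum-1 libraries together, against 68 in WT, a CPM ratio of 0.0101 (95% exact interval 0.000252 to 0.0582, counting error only). This difference was called (adjusted p = 0.000203, edgeR). The shares of genes called in these fits were 34.9% in posterior neuronal, 36.1% in PZ 1, 35.6% in PSM, 34.7% in NMP and 29.9% in epidermis 1.

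si:dkey-85k7.7 was called lower in posterior neuronal cells and NMP. In posterior neuronal cells, 1 UMI in notum-1 stood against 48 in WT, a CPM ratio of 0.0121 (95% exact interval 0.0003 to 0.0707; adjusted p = 0.00171, edgeR). In NMP, 4 UMIs stood against 33 (-2.76 ± 0.87 on the log2 scale, adjusted p = 0.0208, edgeR). The NMP call was lost without DJ2, WNT_MG2 or WNT_DJ1 (adjusted p = 0.118, 0.0537 and 0.0520). In epidermis 1 the gene was at 1.19 to 10.4 CPM in notum-1 and 0.71 to 12.5 CPM in WT, and did not pass (-0.33 ± 0.68, adjusted p = 0.752, edgeR).

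**Figure D4:**
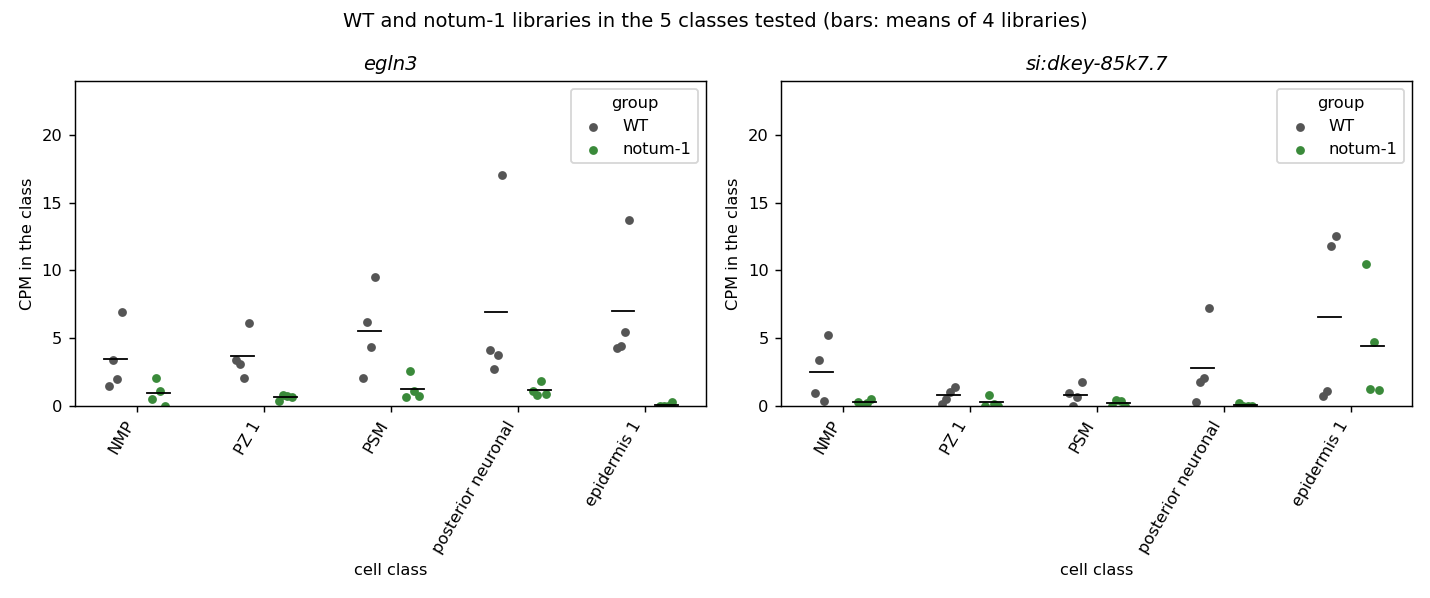
egln3 and si:dkey-85k7.7 in CPM in the 5 classes tested, 1 point per library for WT and notum-1, with bars at the means of 4 libraries. The highest WT point of egln3 in each class is DJ2, and notum-1 libraries lie at or below 2.58 CPM for egln3 and reach 10.4 CPM for si:dkey-85k7.7 in epidermis 1.

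vegfaa passed the filter on low counts in NMP and posterior neuronal cells and not in the other 3 classes tested. It was lower in both, at -1.75 ± 0.55 (adjusted p = 0.0181, edgeR) in NMP and -1.62 ± 0.52 (adjusted p = 0.0220, edgeR) in posterior neuronal cells. In NMP, vegfaa stood at 58.4% of its all-cell level in WT and 22.6% in notum-1, beside 42.2% and 17.3% for the epidermal genes. In posterior neuronal cells it stood at 58.7% and 20.5%, beside 46.3% and 19.0%. Both classes thus lay not far above background in both groups, and the part of free RNA in these calls was not tested. The NMP call was lost without MG1, DJ1 or WNT_MG2 (adjusted p = 0.0619, 0.0627 and 0.0559) and the posterior neuronal call without DJ1, DJ2 or WNT_DJ2 (adjusted p = 0.0530, 0.143 and 0.0704). ldha was lower in posterior neuronal cells, at 2.35 to 3.48 CPM against 5.14 to 12.2 CPM (-1.01 ± 0.31, adjusted p = 0.0173, edgeR), a call lost without DJ2 or WNT_DJ1 (adjusted p = 0.108 and 0.0528). eno1a, pfkfb3 and pgk1 were called in none of the 5 classes in these fits. pfkfb3 in posterior neuronal cells (-1.15, adjusted p = 0.0740, edgeR) was called lower with library totals alone (-1.58, adjusted p = 0.0140) and with only the 8 WT and notum-1 libraries fitted (-1.14, adjusted p = 0.0198). Library totals alone also brought lower calls for egln3 (adjusted p = 0.0331, edgeR) and ldha (adjusted p = 0.0211, edgeR) in NMP and si:dkey-85k7.7 in PSM (adjusted p = 0.0345, edgeR). The last was called without MG2 too (adjusted p = 0.0485, edgeR). Whether the classes differed from each other was not tested.

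DMH1 and SU5402 were compared directly over all cells, at doses and times that the sources used here do not give. None of the 7 genes passed the threshold, while 1.19% of all genes did, which is 195 genes. The genes were chosen as higher after both inhibitors in these same libraries, which favours genes alike in both. With so small a share called over all genes, the absence of calls among the 7 is not read as a result. The log2 fold changes of DMH1 against SU5402 were -0.31 (95% interval -0.83 to 0.20) for eno1a, -0.18 (-0.85 to 0.49) for egln3, -0.26 (-0.87 to 0.34) for pfkfb3 and -0.27 (-1.12 to 0.58) for si:dkey-85k7.7. They were -0.41 (-0.95 to 0.12) for vegfaa, -0.17 (-0.63 to 0.28) for ldha and -0.13 (-0.54 to 0.29) for pgk1. All 7 adjusted p lay between 0.300 and 0.731 (edgeR), and the intervals leave room for differences in either direction.

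The count of 195 genes rests on the library SU4. Without SU4, 4696 genes were called, and still none of the 7, with vegfaa nearest (adjusted p = 0.0640, edgeR). Libraries DMH2 to DMH4 and SU2 to SU4 share numbers, though what the numbers stand for is not given. A fit of these 6 libraries with the number as a block called 13 genes, again none of the 7.

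Other genes of the pathway were taken from 3 lists that hold none of the 7 and share a few genes, such as hk2, with each other. The lists were chosen with earlier results of these data known. Their counts, medians and p-values against WT are therefore no independent support for the choice of the 7. Of 17 genes of the HIF machinery tested, 9 were higher and 2 lower after DMH1 than in WT, and 7 higher and 1 lower after SU5402. Among all genes, 22.1% were higher and 20.3% lower after DMH1, and 23.0% higher and 19.6% lower after SU5402. The median log2 fold change of the list was 0.44 after DMH1 and 0.45 after SU5402, beside 0.06 and 0.11 for all genes.

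In this list, egln2, another HIF prolyl hydroxylase, rose from 6.50 ± 0.68 CPM in WT to 45.1 ± 10.7 CPM after DMH1 and 47.1 ± 7.97 CPM after SU5402 (adjusted p = 2.37e-07 and 1.70e-07, edgeR). hif1an, the asparagine hydroxylase that blocks coactivator binding to HIF alpha, rose from 7.68 ± 0.90 to 36.1 ± 6.75 and 48.7 ± 8.09 CPM (adjusted p = 1.86e-07 and 4.52e-08, edgeR). vhl, which recognises hydroxylated HIF alpha, rose from 14.1 ± 3.51 to 36.0 ± 6.93 CPM after DMH1 (adjusted p = 9.53e-05, edgeR), and cul2, the scaffold of its ligase, rose in both. rbx1, the RING subunit of that ligase, fell in both, from 501.3 ± 6.11 to 368.2 ± 24.1 CPM after DMH1 and 315.3 ± 37.9 CPM after SU5402. arnt2, a HIF partner, rose from 46.4 ± 4.40 to 100.6 ± 16.9 CPM after SU5402 and stood at 75.3 ± 2.496 CPM after DMH1.

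Of 47 further oxygen response genes tested, 18 were higher and 3 lower after DMH1, and 17 higher and 3 lower after SU5402, with medians of 0.49 and 0.46. stc2a, a secreted stanniocalcin, rose from 9.91 ± 2.17 CPM to 35.0 ± 5.14 CPM after DMH1 and 27.5 ± 2.32 CPM after SU5402. mxi1, a MYC antagonist, rose from 15.7 ± 2.36 to 32.4 ± 2.05 and 44.2 ± 8.59 CPM. plod1a, a collagen lysyl hydroxylase, rose after SU5402 from 47.4 ± 4.90 to 196.2 ± 35.5 CPM. higd1a, a mitochondrial protein induced by low oxygen in mammals, fell from 117.4 ± 12.8 to 48.4 ± 6.95 and 46.6 ± 11.5 CPM. pdk1, a kinase that inhibits pyruvate dehydrogenase, fell after SU5402 (-0.89 ± 0.21, adjusted p = 0.00249, edgeR). vegfab, the duplicate of vegfaa, did not pass in either (0.52 ± 0.29 after DMH1 and 0.40 ± 0.30 after SU5402).

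Of 35 further glycolysis genes tested, 12 were higher and 7 lower after DMH1, and 13 higher and 7 lower after SU5402, with medians of 0.22 and 0.22. Isoforms of 1 enzyme moved in different directions. aldocb, an aldolase, rose from 1.74 ± 0.33 CPM to 21.0 ± 7.11 and 27.4 ± 2.33 CPM, while aldoab fell after DMH1 from 4.25 ± 0.65 to 2.64 ± 0.94 CPM. pgam1a, gpia and hk1, which encode a phosphoglycerate mutase, glucose-6-phosphate isomerase and a hexokinase, rose in both. pfkfb4b, a relative of pfkfb3, fell from 91.6 ± 7.38 to 48.2 ± 3.32 and 61.8 ± 5.85 CPM. ldhba, the other lactate dehydrogenase subunit, fell from 92.8 ± 6.59 to 74.8 ± 4.73 and 69.5 ± 14.0 CPM. The DMH1 call of ldhba was lost with library totals alone (adjusted p = 0.0664, edgeR), and with them the list had 15 higher and 4 lower after DMH1, and 15 higher and 3 lower after SU5402.

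In notum-1, 4 of 17 genes of the HIF machinery were higher and 5 lower. Of 47 oxygen response genes 8 were higher and 7 lower, and of 35 glycolysis genes 6 were higher and 7 lower. Among all genes, 20.9% were higher and 17.1% lower, and no difference of the lists from these shares was tested. The medians were -0.08, 0.05 and -0.27 beside 0.03 for all genes. All the lower calls of the 3 lists held with library totals alone, while 0 of 4, 3 of 8 and 3 of 6 of the higher calls did. With library totals the counts were 0 higher and 8 lower, 3 and 15, and 3 and 15. egln2 fell from 6.50 ± 0.68 to 1.74 ± 0.12 CPM (adjusted p = 4.48e-05, edgeR), hif1al, an alpha subunit gene, from 97.6 ± 6.43 to 49.1 ± 3.38 CPM, and stc2a from 9.91 ± 2.17 to 2.80 ± 0.16 CPM. pfkfb4b fell from 91.6 ± 7.38 to 31.7 ± 4.48 CPM. cygb1, a cytoglobin, rose from 5.01 ± 0.52 to 13.2 ± 5.26 CPM under both scalings.

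Between DMH1 and SU5402, 1 gene of the HIF machinery was called, siah1, a ubiquitin ligase that acts on EGLN proteins in mammals, at 30.2 ± 0.79 CPM after DMH1 and 48.0 ± 11.9 CPM after SU5402 (adjusted p = 0.0412, edgeR), and none of the other lists. The siah1 call was lost when any other library of these 2 groups was left out. Without SU4, 5 genes of the HIF machinery, 15 oxygen response genes and 8 glycolysis genes were called, beside 4696 of all genes. The main fit tested 17, 47 and 35 genes of these lists and 16399 genes in all. These counts are not read as a difference in the pathway.

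**Figure D5:**
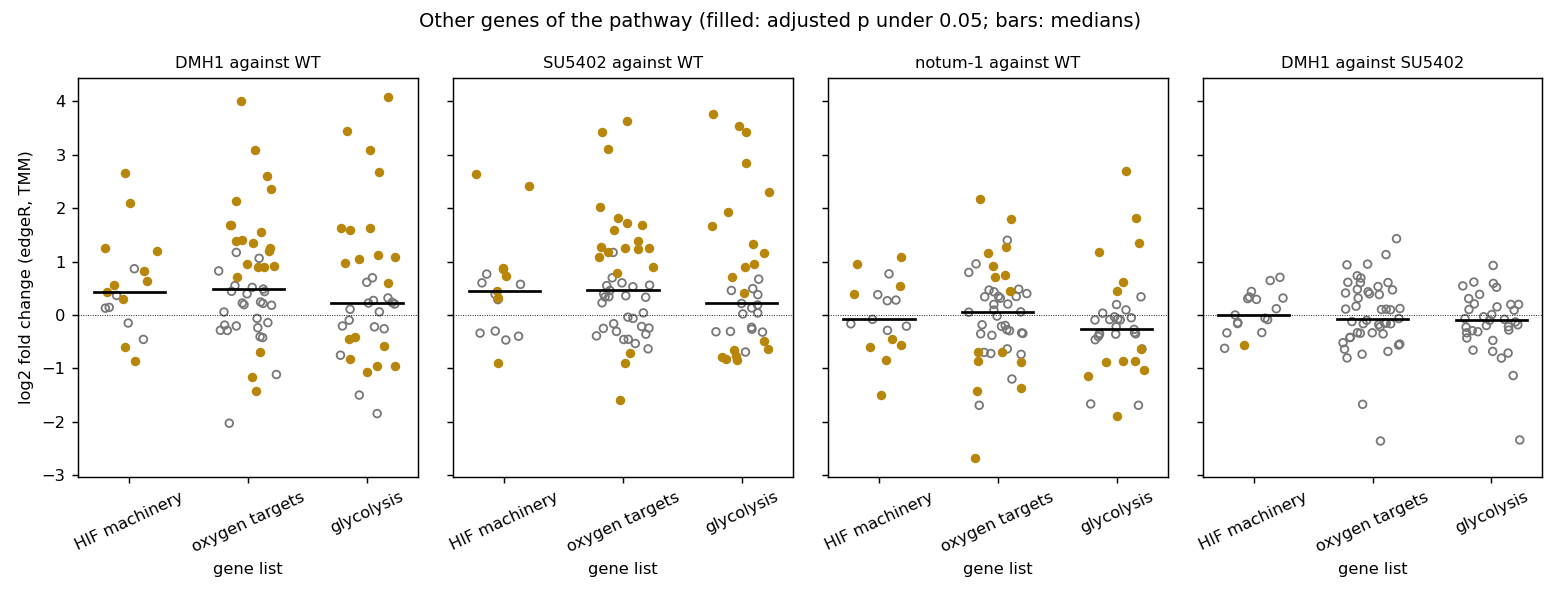
Log2 fold change of each tested gene of the 3 pathway lists (17, 47 and 35 genes) in the 4 comparisons, with filled points for an adjusted p under 0.05 and bars at the list medians. More points are filled above 0 than below it after DMH1 and SU5402, and 1 point is filled between DMH1 and SU5402.

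The 6 other genes whose levels over the 16 libraries were most like the mean profile of the 7 were aldocb, egln2, ndrg1a, hif1an, mxd4 and tent5ba. Likeness was the root-mean-square distance of TMM-scaled log2 CPM (prior count 2), each gene centred on its own mean. It was taken among 8154 genes whose mean reached 5 CPM by library totals. The distances were 0.31 for aldocb, 0.48 for egln2, 0.59 for ndrg1a, 0.70 for hif1an, 0.76 for mxd4 and 0.86 for tent5ba. On the same scale the 7 themselves ran from 0.25 for ldha to 1.34 for si:dkey-85k7.7 and 2.15 for vegfaa. ndrg1a was at 5.11 ± 1.00 CPM in WT, 29.2 ± 7.76 CPM after DMH1, 54.1 ± 38.5 CPM after SU5402 and 1.64 ± 1.02 CPM in notum-1. mxd4, a MAX partner, was at 4.29 ± 1.19, 15.3 ± 1.81, 22.0 ± 4.08 and 1.83 ± 0.42 CPM, and tent5ba at 5.71 ± 2.09, 31.7 ± 6.56, 35.9 ± 21.0 and 2.77 ± 2.30 CPM in the same order.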

How the data were processed

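The authors deposited raw UMI counts for 21301 genes in 130661 cells, with a cell table giving library, treatment, class, total, gene number and mitochondrial percent. The submitters' processing notes name Cell Ranger and GRCz11, with no version, and the mitochondrial percent is the authors' deposited value. Of 16 library names, 4 matched a labelled sample and 12 a group only, and WNT was taken as notum-1. Counts were summed per library, over all cells and per class, and divided by the library's or class's total (CPM).

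Sums were tested with edgeR 4.0.16 (TMM, filterByExpr, robust quasi-likelihood, R 4.3.3), all 16 libraries in 1 fit with 12 residual degrees of freedom. P-values were Benjamini-Hochberg adjusted over all genes, with a threshold of 0.05. The pipeline was checked on simulated data. The members and lists were chosen with earlier results of these data known. Named list genes were drawn from the 4 higher and 4 lower with the smallest adjusted p, and vegfab was named after its values were seen.

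Deviations of TMM-scaled log2 CPM from the group mean correlated at 0.17, 0.22 and 0.36 over 8160 genes between same-numbered DMH1 and SU5402 libraries. Libraries with different numbers were not compared, so the numbers are not shown to pair libraries. The number was used as a block in an alternative fit. Low-depth libraries give wider counting error. Doublets were not called. Python 3.11.15 made the sums and figures.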

Additional observations from a re-analysis of the deposited data

Results flagged for a closer look

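In WT, egln3 was at 12.1 CPM in the library DJ2 and at 3.29 to 4.39 CPM in the other 3. The gap from DJ2 to the nearest library was 0.875 of the whole range, above Dixon's limit at 95% for 4 values. This gap was computed for 28 sets of 4 libraries (7 genes in 4 groups), and it was the only one past the limit, while chance passes about 1 set in 20. In DJ2 the mitochondrial share was 2.30%, within the WT range of 1.52% to 2.38%.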

How the results depend on the processing

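None of the called values turned its direction under any alternative run. Between notum-1 and WT, the common cell filter called 3720 genes in place of 6239, 8 oxygen response genes in place of 15 and 8 glycolysis genes in place of 13. Glycolysis calls with the common filter were 12 in DMH1 against WT (19 otherwise) and 12 in SU5402 against WT (20 otherwise), and 13 in SU5402 with libraries thinned to the smallest. The comparison of DMH1 with SU5402 was unstable: 195 genes became 1116 with DESeq2, 61 with the common filter, 13 with the replicate block, and 80 to 4696 with 1 library left out. Its calls in the HIF machinery list were 2 with DESeq2, 0 with no filter on low counts, 0 with only the 8 libraries compared, 0 with the common filter, 0 with the block, and 0 to 5 with 1 library left out. DESeq2 called 2 oxygen response genes and 1 glycolysis gene there, and leaving out 1 library gave 0 to 15 and 0 to 8. The cause was not tested.

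Over 15 alternatives, egln3 in notum-1 ran from -2.64 to -1.64 on the log2 scale and si:dkey-85k7.7 from -2.75 to -1.25. WT and notum-1 libraries share name endings, but their deviations correlated at 0.50, -0.03, -0.31 and 0.47, so the endings are not shown to pair them. With that ending as a block, 5601 genes were called and si:dkey-85k7.7 was -1.81 (adjusted p = 0.0788, edgeR). Low counts limit the class values: several WT classes hold under 10 UMIs of a gene.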
